A study of Mus musculus with 225 samples.

Results

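Described here are 8 immediate early genes and 2 Hsp70 genes of the developing mouse forelimb. The rows named *Fos*, *Fosb*, *Jun*, *Junb*, *Egr1*, *Ier2*, *Atf3*, *Dusp1*, *Hspa1a* and *Hspa1b* were taken from the count table and from the normalized table. These are 10 genes of 23165 in the raw counts and of 10948 in the normalized values and all 10 were present in both tables. Immediate early genes are transcribed within minutes of a stimulus, without new protein synthesis, and their mRNAs are short lived. Many of their products are transcription factors, among them the Fos and Jun proteins that pair to form the AP-1 factor, while others, such as the phosphatase Dusp1, switch the kinase signal off again. The inducible Hsp70 genes answer protein damage instead, through heat shock factor, and both classes are well known to be induced when a tissue is dissociated into single cells with warm enzyme and sorted.

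The cells came from forelimbs of mouse embryos at embryonic day 12.5 and carried 1 copy of a tau-GFP sequence knocked into *Hoxd11* (Hoxd11::GFP heterozygous, on a mixed C57Bl6CBAF1 background). Limbs were dissected into the autopod, the future hand, and the zeugopod, the future forearm, treated for 15 min with collagenase at 37 °C, triturated for 10 s, sorted for the top 20% of GFP fluorescence and captured on a Fluidigm C1 chip. All cells analysed here had been dissociated and sorted, and the GFP line restricts the cells to those in which the *Hoxd11* locus had been active. After the authors' selection 76 autopod cells (59 of run NXT0072 and 17 of run NXT0143) and, of the zeugopod, 58 cells of run NXT0142 and 65 of run NXT0143 remained, and 20 autopod and 6 zeugopod cells had been left out. All limbs were pooled, with 8 embryos given in one label and 8 forelimbs in another, and no label ties a cell to an embryo. Each tissue was therefore 1 sample, the cells were not replicates of it, and no p-value was computed. Intervals on shares are exact binomial 95% intervals that cover counting error only. Reads carried no molecular identifiers.

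Retained cells held 186271 to 9437447 reads on genes, with medians of 2641867 to 4048526 in the 4 groups of tissue and run, and a median of 3528 to 4284 genes with a read. The labelled tissues were checked on markers. *Hoxd13* or *Hoxa13* was read in 70 autopod and 4 zeugopod cells (92.1% and 3.25%), and *Shox2* or *Meox2* in 5 and 96 (6.58% and 78%). The autopod cells of NXT0143 stood apart, since 12 of 17 held an autopod marker against 58 of 59 in NXT0072, at summed medians of 33.6 and 916 CPM, and results are given for the runs apart. Of the captured autopod cells, 17 of 27 of NXT0143 and 59 of 69 of NXT0072 were retained. Of the zeugopod cells, 58 of 60 of NXT0142 and 65 of 69 of NXT0143 were. At least 1 of 5 limb mesenchyme markers was read in 64.7% of the autopod cells of NXT0143 and 89.8% of those of NXT0072. In the zeugopod this share was 67.7% in NXT0143 and 87.9% in NXT0142, so it was lower in NXT0143 in both tissues. No cell of either tissue reached the marker minimum for muscle, epithelium, endothelium or macrophages, a count of 0 that allows up to 3 cells in each tissue. Of 4 blood genes, 1 was in the table, and the others were not analysed here.

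The question put to these genes was in how many cells each was on, at what level, and whether tissue and run differed. Detection of a gene in a cell required 5 or more reads. *Fos* and *Egr1* were the most widely detected in the autopod, and *Jun* in the zeugopod. The immediate early genes together took a median of 0.55% of a cell's reads on genes in the autopod, with a highest value of 2.24%, and 0.324% in the zeugopod, with a highest value of 2.65%. In the autopod cells of NXT0143 the median was 1.19%, against 0.391% in NXT0072, 0.201% for the zeugopod cells of NXT0142 and 0.363% for those of NXT0143. The Hsp70 pair took at most 0.156% of any cell's reads.

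**Figure D1:**
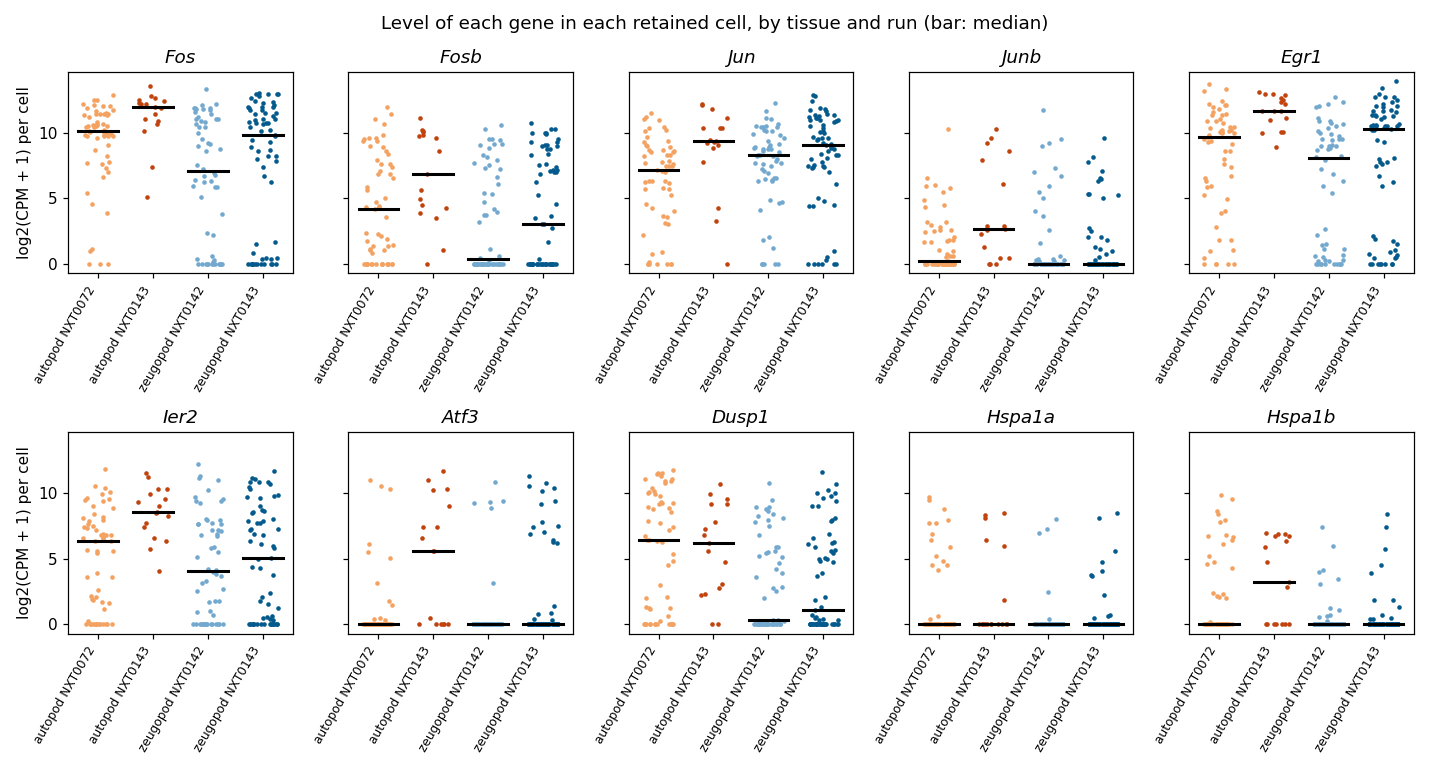
Each point is a retained cell, the vertical axis is log2(CPM + 1), and the 4 columns of each panel are the groups of tissue and run, with the median as a bar. *Fos* and *Egr1* split into a high and a near-zero population in both zeugopod runs, while every autopod cell of NXT0143 held reads of both, and the Hsp70 medians lie at 0 except *Hspa1b* in the autopod cells of NXT0143.

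*Fos*, the founding member of the AP-1 family, lies at chr12:85473890-85477273 on the forward strand (GRCm38, GENCODE annotation). The 250 bases upstream of its RefSeq start (chr12:85473640-85473889, GRCm38.p6, forward strand) are shown because this promoter is a textbook target of the kinase pathways that drive the class. Capitals mark the TATAAA box, which lay 33 bases before the start, and 2 copies of TGACG, the core of the cyclic AMP response element. The core was added to the search after the windows were seen.
Fos: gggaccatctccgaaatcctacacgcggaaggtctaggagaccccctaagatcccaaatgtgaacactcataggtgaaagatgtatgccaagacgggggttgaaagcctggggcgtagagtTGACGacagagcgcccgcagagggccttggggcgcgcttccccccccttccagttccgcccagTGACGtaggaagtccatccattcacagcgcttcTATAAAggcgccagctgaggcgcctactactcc

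*Fos* was detected in 71 autopod cells (93.4%, interval 85.3 to 97.8%) and 89 zeugopod cells (72.4%, interval 63.6 to 80%). Its CPM, the reads of the gene per 1000000 reads on genes, ran from 0 to 12183 in the autopod with a median of 1434, and from 0 to 10477 in the zeugopod with a median of 479. By run the median was 3953 in the autopod cells of NXT0143, 1132 in those of NXT0072, 916 in the zeugopod cells of NXT0143 and 136 in those of NXT0142. Cells of both tissues covered the same range, but their distribution differed, because 24 zeugopod cells and 3 autopod cells held no *Fos* read at all. Among the cells with 5 or more reads the medians were close, 1511 CPM in the autopod and 1679 in the zeugopod. This closeness was not seen by run, where these medians were 3953 against 1978 within NXT0143, and 1384 in the autopod cells of NXT0072 against 865 in the zeugopod cells of NXT0142. In the autopod cells of NXT0143, 17 of 17 held *Fos* (lowest 34.2 CPM), and 15 of them exceeded 1000 CPM. Beside this stood 33 of 59 autopod cells of NXT0072, 20 of 58 zeugopod cells of NXT0142 and 32 of 65 of NXT0143.

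On the length-corrected scale *Fos* was among the most abundant mRNAs of these cells. Its mean normalized value ranked 9 of 10948 genes in the autopod and 21 in the zeugopod, and it ranked 4 in the autopod cells of NXT0143. *Fosb*, a second Fos protein, was far lower, with a mean normalized value of 368 (autopod) and 155 (zeugopod) against 4596 and 2073 for *Fos*. It was detected in 53 autopod cells (69.7%, interval 58.1 to 79.8%) and 63 zeugopod cells (51.2%, interval 42 to 60.3%). Its CPM ran from 0 to 3945 with a median of 20.7 in the autopod, and from 0 to 1688 with a median of 2.16 in the zeugopod. Most *Fosb* cells also held *Fos*, 52 of 53 in the autopod and 56 of 63 in the zeugopod.

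*Jun*, the main partner of the Fos proteins, is a single-exon gene at chr4:95049034-95052222 on the reverse strand that overlaps the annotated *Junos* transcript, and the counting was not stated to use strand. It followed a different order from *Fos*. It was detected in 64 autopod cells (84.2%, interval 74 to 91.6%) and all but 15 zeugopod cells (87.8%, interval 80.7 to 93%). Its CPM ran from 0 to 4608 with a median of 212 in the autopod and from 0 to 7594 with a median of 383 in the zeugopod. By run the medians were 664 in the autopod cells of NXT0143, 536 in the zeugopod cells of NXT0143, 308 in those of NXT0142 and 146 in the autopod cells of NXT0072. The autopod therefore held both the highest and the lowest median. Every zeugopod cell with *Fos* also had *Jun*, 89 of 89, while 19 zeugopod cells had *Jun* without *Fos*. In the autopod the count went the other way, with 9 cells holding *Fos* without *Jun* and 2 holding *Jun* without *Fos*.

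*Junb*, a Jun protein that can restrain AP-1, was much rarer. It was detected in 32 autopod cells (42.1%, interval 30.9 to 54%) and 30 zeugopod cells (24.4%, interval 17.1 to 32.9%), and its CPM ran from 0 to 1268 with a median of 0.629 and from 0 to 3383 with a median of 0. This share depended on depth. After each cell was thinned to 500000 reads, which left out 4 shallower cells of each tissue, *Junb* was detected in 14 of 72 autopod cells (19.4%) and 23 zeugopod cells (19.3%). By run these shares were 37.5% in the autopod and 17.5% in the zeugopod within NXT0143, and 14.3% in the autopod cells of NXT0072 beside 21.4% in the zeugopod cells of NXT0142. A single cell also carried 72.7% of all *Junb* reads of the autopod cells of NXT0072. *Junb* overlaps *Prdx2* in the annotation. All 30 zeugopod cells with *Junb* had *Jun*, as did 30 of 32 in the autopod.

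*Egr1*, a zinc finger transcription factor induced through serum response factor, was detected in 69 autopod cells (90.8%, interval 81.9 to 96.2%) and 87 zeugopod cells (70.7%, interval 61.9 to 78.6%). Its CPM ran from 0 to 13081 with a median of 1082 in the autopod and from 0 to 15615 with a median of 462 in the zeugopod. By run the median was 3215 in the autopod cells of NXT0143, 1253 in the zeugopod cells of NXT0143, 829 in the autopod cells of NXT0072 and 265 in the zeugopod cells of NXT0142. *Egr1* shared this order of medians with *Fos* except that the zeugopod cells of NXT0143 stood above the autopod cells of NXT0072. All 17 autopod cells of NXT0143 held it, none below 488 CPM, while the zeugopod cells fell into a high group and a group close to 0. Its mean normalized value ranked 39 in the autopod and 93 in the zeugopod. *Fos* and *Egr1* were both on in 66 autopod cells and 72 zeugopod cells, and neither was on in 2 and 19.

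*Ier2*, a single-exon early response gene at chr8:84661331-84662852, reverse strand, was detected in 60 autopod cells (78.9%, interval 68.1 to 87.5%) and 77 zeugopod cells (62.6%, interval 53.4 to 71.2%). Its CPM ran from 0 to 3663 with a median of 101.8 in the autopod and from 0 to 4738 with a median of 19.6 in the zeugopod. All autopod cells of NXT0143 had a read of it, and their median was 384 CPM, against 80.9 in NXT0072, 15.6 in the zeugopod cells of NXT0142 and 32.9 in the zeugopod cells of NXT0143. *Atf3*, a stress-induced member of the ATF/CREB family at chr1:191170296-191218039, was the least widespread of the 8. It was detected in 19 autopod cells (25%, interval 15.8 to 36.3%) and 21 zeugopod cells (17.1%, interval 10.9 to 24.9%), with a median of 0 CPM and highest values of 3197 and 2490. Where it was on it could be abundant, with a median of 168 CPM in the autopod and 565 in the zeugopod. By run it was detected in 10 of 17 autopod cells of NXT0143 (58.8%, interval 32.9 to 81.6%) against 9 of 59 of NXT0072 (15.3%, interval 7.22 to 27%), and in 15 of 65 zeugopod cells of NXT0143 against 6 of 58 of NXT0142. Its share was thus higher in NXT0143 in both tissues. Only the autopod intervals did not overlap. How many of all genes differ so between these runs was not counted, so it is no finding about *Atf3*.

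*Dusp1* encodes a nuclear phosphatase that inactivates MAP kinases and so closes the early response. Its RefSeq window (chr17:26508473-26508722, GRCm38.p6, reverse strand) is shown because it was the only one of 8 member windows searched with the full cyclic AMP response element, TGACGTCA, in capitals together with a further TGACG. That element was found in 1.55% of 32851 promoter windows of the same length and TGACG in 17.8%.
Dusp1: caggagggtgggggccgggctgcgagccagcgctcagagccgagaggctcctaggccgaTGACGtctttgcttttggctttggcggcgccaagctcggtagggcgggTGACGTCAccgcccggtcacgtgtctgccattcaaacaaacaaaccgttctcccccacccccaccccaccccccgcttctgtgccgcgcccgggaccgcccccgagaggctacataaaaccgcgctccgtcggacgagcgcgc

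*Dusp1* was detected in 55 autopod cells (72.4%, interval 60.9 to 82%) and 59 zeugopod cells (48%, interval 38.9 to 57.2%). Its CPM ran from 0 to 3460 with a median of 84.8 in the autopod, and from 0 to 3084 with a median of 0.644 in the zeugopod. Its median was higher in the autopod in both runs of that tissue than in either run of the zeugopod. The values were 86.2 CPM in the autopod cells of NXT0072 and 72.1 in those of NXT0143, against 0.247 and 1.15 in the zeugopod cells of NXT0142 and NXT0143. The level among cells that had it also differed, at 444 CPM in the autopod and 74 in the zeugopod. By run it was 522 in the autopod cells of NXT0072 against 58.9 in the zeugopod cells of NXT0142, and 108.3 against 75.9 within NXT0143. The annotated span of *Dusp1* overlaps *Ergic1*.

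*Hspa1a* and *Hspa1b* encode the inducible Hsp70 chaperone, are single-exon genes, and lie side by side on chromosome 17, at 34969190 to 34972156 and 34956436 to 34959238 on the reverse strand. Their RefSeq windows of 250 bases (chr17:34972157-34972406 and chr17:34959239-34959488, GRCm38.p6, reverse strand) are shown because the copies are nearly identical. They shared 247 of 250 bases (98.8%) and differed by C44T, T47C and T249G, written from *Hspa1a* to *Hspa1b* and counted from the 5′ end of the window. Capitals mark a paired heat shock element, GAANNTTC, found in 6.69% of all windows, and a CCAAT box on the opposite strand, found in 33.8%.
Hspa1a: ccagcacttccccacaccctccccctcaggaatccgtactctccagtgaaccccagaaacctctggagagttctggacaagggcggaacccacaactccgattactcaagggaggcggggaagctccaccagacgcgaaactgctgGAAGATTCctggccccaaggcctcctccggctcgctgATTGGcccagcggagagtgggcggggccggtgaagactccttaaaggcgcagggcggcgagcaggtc
Hspa1b: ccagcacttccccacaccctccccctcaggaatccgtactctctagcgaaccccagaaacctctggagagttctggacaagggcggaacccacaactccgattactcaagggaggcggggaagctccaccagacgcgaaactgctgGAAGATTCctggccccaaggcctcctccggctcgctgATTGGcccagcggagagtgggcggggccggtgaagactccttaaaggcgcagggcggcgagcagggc

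Within the transcripts, 1785 of 2893 windows of 75 bases in *Hspa1a* (61.7%) and 1524 of 2729 in *Hspa1b* (55.8%) also occurred in another annotated gene's transcript, that of the twin copy, *Gm20481*, *Gm10501* or *Hspa1l*. Since reads of 75 bases were kept only where they mapped uniquely, values of the pair are uncertain and rest on the remaining 38.3% and 44.2% of windows. No such window was shared by the other members except 5.07% of those of *Jun*, with *Junos*. Both genes were off in most cells. *Hspa1a* was detected in 20 autopod cells (26.3%, interval 16.9 to 37.7%) and 12 zeugopod cells (9.76%, interval 5.14 to 16.4%), with a median of 0 CPM and highest values of 811 and 349.9. *Hspa1b* was detected in 30 autopod cells (39.5%, interval 28.4 to 51.4%) and 14 zeugopod cells (11.4%, interval 6.36 to 18.4%), with a median of 0 CPM and highest values of 928 and 331. The binomial intervals of the tissues did not overlap for either gene, but they cover counting error only. How many of all genes show this was not counted, so it is no finding about the pair. After thinning the shares were 23.6% and 8.40% for *Hspa1a*, with overlapping intervals, and 30.6% and 7.56% for *Hspa1b*. Both copies were on together in 15 autopod cells and 7 zeugopod cells, which was 75% and 58.3% of the *Hspa1a* cells and 50% of the *Hspa1b* cells in each tissue.

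Ordered by mean normalized value, which is corrected for gene length, the members ran *Fos* (4596), *Egr1* (2247), *Ier2* (1403), *Dusp1* (972), *Jun* (950.4), *Atf3* (567), *Fosb* (368), *Junb* (176), *Hspa1a* (55.4) and *Hspa1b* (54.9) in the autopod. In the zeugopod the order was *Fos* (2073), *Egr1* (950.2), *Jun* (895), *Ier2* (837), *Atf3* (177), *Dusp1* (176), *Fosb* (155), *Junb* (141), *Hspa1a* (15.5) and *Hspa1b* (9.41). A few cells carried much of the lower means, up to 35.7% of the *Atf3* reads and 31.7% of the *Ier2* reads of the autopod lying in 1 cell, so the order of neighbours from *Ier2* down was not separated.

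Tissues were then compared as the autopod minus the zeugopod difference of mean log2(normalized value + 1), on which genes without reads sit at a floor. A size of 2 or more was used as the mark of a large difference. Of the 4898 genes with 5 or more reads in 25% of the cells of either tissue, 0.796% were at least 2 higher in the autopod. All 10 members passed this filter, but *Junb*, *Atf3*, *Hspa1a* and *Hspa1b* did so only through the autopod, where they were more often on. *Fos* (2.64, from 10.03 ± 3.58 against 7.39 ± 4.84, SD over cells) and *Dusp1* (2.54, from 6.01 ± 4.36 against 3.48 ± 3.56) were past 2. *Egr1* (1.82), *Hspa1b* (1.65), *Ier2* (1.40), *Fosb* (1.16), *Hspa1a* (1.12), *Junb* (0.70) and *Atf3* (0.44) were above 0 but short of that size, and *Jun* (-0.78) was below. The median of all genes was -0.12, and a fold on this scale understates the change of rarely detected genes. Each of these differences was smaller than the SD over autopod cells of the gene. CPM gave the same signs, with 2.52 for *Fos*, 2.46 for *Dusp1* and -0.94 for *Jun*. Cells with at least 3 of 5 chondrogenic markers made up 46.1% of the autopod and 30.9% of the zeugopod, at summed medians of 2222 and 749 CPM over the 5 genes, and the median of the 10 differences was 1.28 with these cells and 1.39 without them. At least 2 of 3 tendon markers were read in 0 and 13.8% of cells, and the part of such cells was not tested.

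The tissues were also compared with the runs held apart, since only NXT0143 held both. Within NXT0143, 3.59% of genes were at least 2 higher in the autopod, and 8 members were: *Ier2* (4.04), *Egr1* (3.92), *Fos* (3.78), *Atf3* (3.11), *Hspa1b* (2.88), *Junb* (2.76), *Dusp1* (2.68) and *Fosb* (2.52). Of these, *Atf3*, *Hspa1b* and *Junb* had passed the filter only through the autopod, so their part of the count is no evidence beyond that choice. *Hspa1a* (1.48) and *Jun* (0.96) were above 0. These values rest on 17 autopod cells, of which 5 held no autopod marker. For *Egr1*, at 10.97 ± 2.33 against 7.04 ± 4.56 (SD over cells), and *Fos*, at 11.51 ± 3.01 against 7.72 ± 4.93, the difference exceeded the SD of the autopod cells but not that of the zeugopod cells. Between the autopod cells of NXT0072 and the zeugopod cells of NXT0142, where 0.96% of genes were at least 2 higher in the autopod and run and tissue cannot be told apart, 2 members were past 2, *Fos* (2.58) and *Dusp1* (2.51). *Egr1* (1.69), *Hspa1b* (1.27), *Hspa1a* (1.07) and *Fosb* (1.03) followed, *Ier2* (0.59), *Atf3* (0.08) and *Junb* (-0.01) were near the middle, and *Jun* was lower (-1.21). *Fos* and *Dusp1* were thus past 2 in each of these 3 comparisons, which share cells, at a pseudocount of 1. The set depended on the scale, since *Egr1* also reached 2.00 in CPM between NXT0072 and NXT0142, *Egr1* (2.16) and *Hspa1b* (2.04) passed over all cells with a pseudocount of 0.1, and *Dusp1* (1.87) did not with a pseudocount of 10. The median of all genes was 0.18 within NXT0143 and -0.34 between the other runs.

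**Figure D2:**
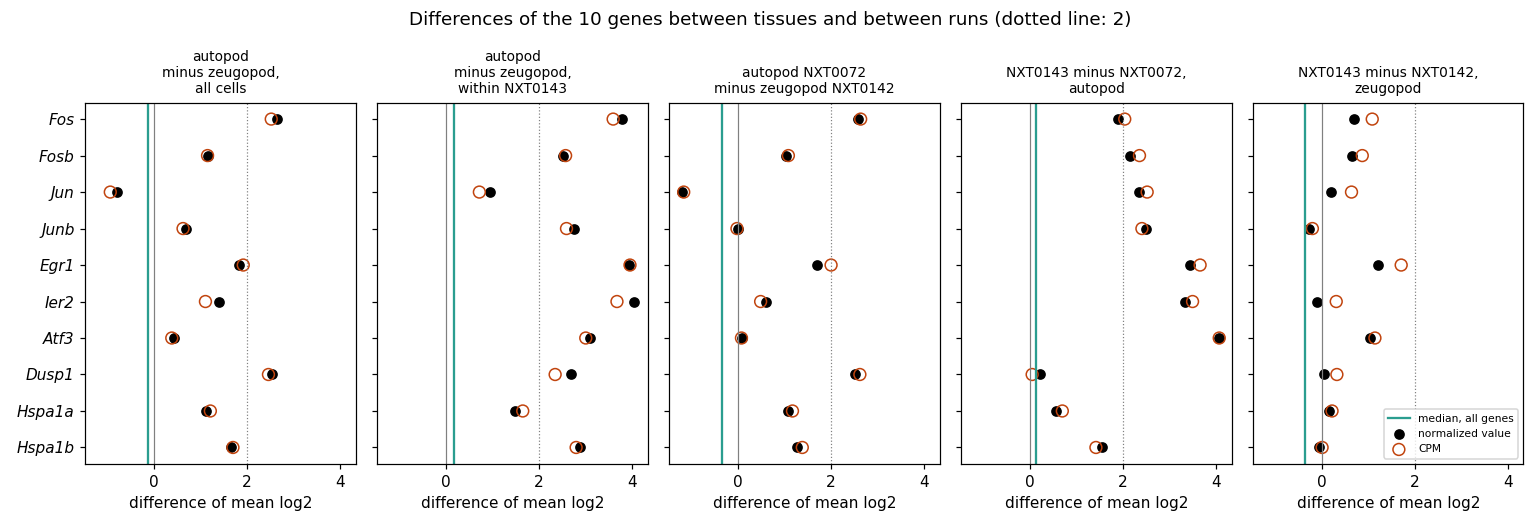
Each panel is a comparison, the horizontal axis is the difference of mean log2(value + 1) in the normalized value (black) or in CPM (open circles), and the green line is the median of all 4898 genes. *Fos* and *Dusp1* lie past the dotted line at 2 in all 3 tissue panels, and between the autopod runs *Atf3* (4.06) lies farthest and *Dusp1* (0.21) nearest to 0. *Atf3* had passed the gene filter only through its share in NXT0143.

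Runs were compared inside each tissue. In the autopod NXT0143 was higher than NXT0072 for 9 members and, by 0.21, for *Dusp1*, which was at -0.11 with a pseudocount of 10, at a background of 6.49% of genes at least 2 higher in NXT0143. *Atf3* (4.06), *Egr1* (3.44), *Ier2* (3.34), *Junb* (2.49), *Jun* (2.35) and *Fosb* (2.14) were past 2. Of these, *Atf3* met the 25% filter only through NXT0143, where 58.8% of autopod cells held it against 15.3% in NXT0072. Its part of the count is therefore no evidence beyond that choice. *Fos* (1.90), *Hspa1b* (1.55), *Hspa1a* (0.56) and *Dusp1* (0.21) were not, although *Fos* reached 2.04 in CPM, where 9.31% of genes passed. *Dusp1* had the smallest difference between the autopod runs. In the zeugopod 0.0408% of genes were at least 2 higher in NXT0143 than in NXT0142, and no member was. The largest member values there were *Egr1* (1.21) and *Atf3* (1.03), followed by *Fos* (0.70) and *Fosb* (0.66). The remaining 6 lay between -0.27 for *Junb* and 0.19 for *Jun*, with the median of all genes at -0.36. The authors centred size factors by batch of origin, which the methods do not name further, so CPM was set beside these values, and in CPM *Egr1* rose to 1.70 and *Fos* to 1.08. Both run comparisons share NXT0143 with the tissue comparison within that run, so their values are not independent of it. The part of the autopod markers, which fewer NXT0143 cells held, in these run differences was not tested.

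How far the early genes were on together was described by the number of the 8 with 5 or more reads in a cell. The median was 6 in the autopod and 5 in the zeugopod, with cells from 0 to 8 in both. At least 6 of the 8 were on in 45 autopod cells (59.2%, interval 47.3 to 70.4%) and 46 zeugopod cells (37.4%, interval 28.8 to 46.6%), and at most 2 were on in 6 and 27. All 8 were on in 8 autopod cells and 9 zeugopod cells, and none in 2 and 7. In the autopod cells of NXT0143 the median was 7, no cell had fewer than 4, and 15 of 17 had at least 6 (88.2%, interval 63.6 to 98.5%). The other groups had 50.8% (autopod, NXT0072), 36.2% (zeugopod, NXT0142) and 38.5% (zeugopod, NXT0143). Depth set part of these shares. After thinning to 500000 reads at least 6 genes were on in 37.5% of autopod and 28.6% of zeugopod cells, with overlapping intervals, and in 26.8% of the autopod cells of NXT0072, below the zeugopod share. In the autopod cells of NXT0143 it was still 75% (interval 47.6 to 92.7%).

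**Figure D3:**
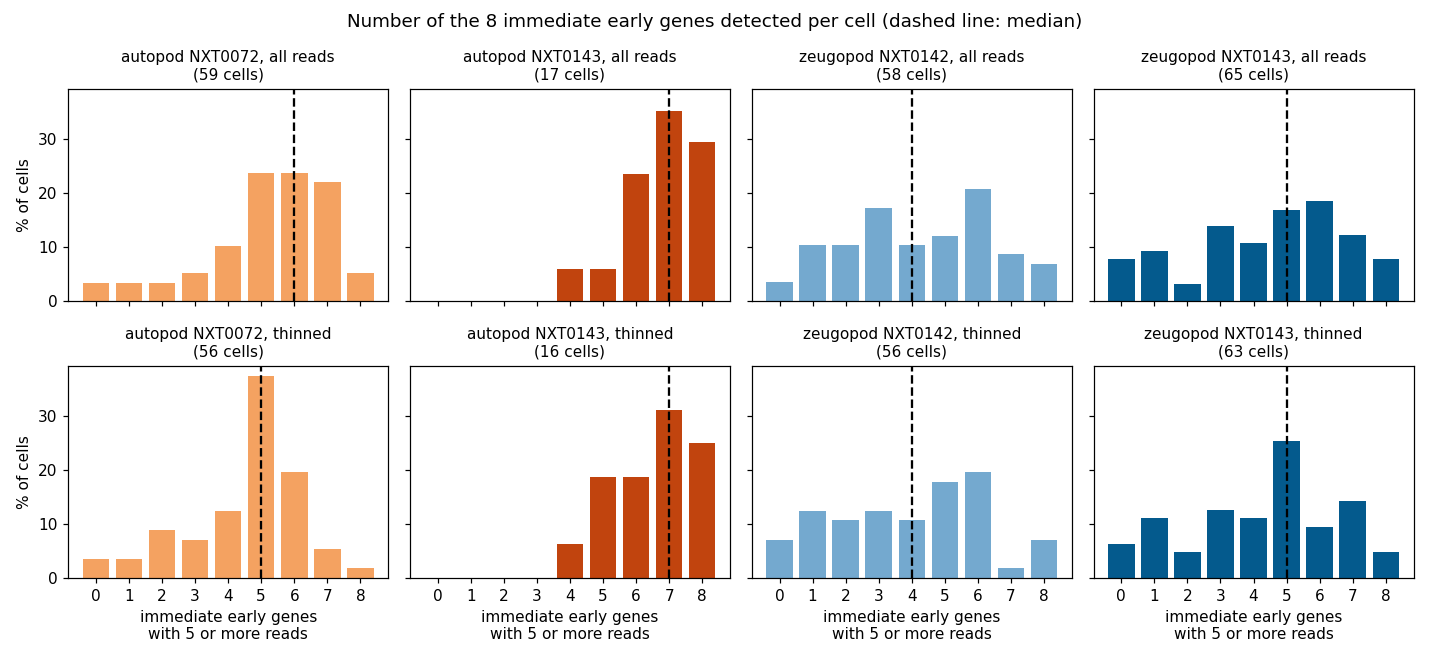
Bars give the percent of cells with each number of the 8 immediate early genes at 5 or more reads, by tissue and run, with all reads (upper row) and after thinning to 500000 reads (lower row), and the dashed line is the median. The zeugopod cells spread over the whole range from 0 to 8, while the 17 autopod cells of NXT0143 sit between 4 and 8.

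Coordination among cells was measured as Spearman's rho of CPM for the 45 pairs of members, across the cells of each tissue. Points of a tissue share its pool, and the labels do not say what else the cells of a run share, so these values are descriptions. The 28 pairs of early genes were all positive in both tissues, with a median of 0.327 in the autopod (0.193 to 0.476) and 0.430 in the zeugopod (0.141 to 0.574). Pairs of all genes with 5 or more reads in 25% of the cells of that tissue (4032 and 4304 genes) had medians of 0.0626 and 0.0328. Of the early genes, *Junb* (24.4%) and *Atf3* (17.1%) fell short of this rule in the zeugopod. *Fos* with *Egr1* had 0.48 over all autopod cells, but 0.42 in NXT0072 and -0.01 in NXT0143. By run the median over the 28 pairs was 0.257 in the autopod cells of NXT0072, 0.391 in the zeugopod cells of NXT0142 and 0.417 in the zeugopod cells of NXT0143. In the 17 autopod cells of NXT0143 it was 0.244 and 22 of 28 pairs were above 0, with *Fos* and *Jun* at -0.19. In the normalized value the same 17 cells had a median of 0.495 with 28 of 28 pairs above 0, so that this value depended on the scaling. With the number of genes detected held constant the medians were 0.305 and 0.429, and after thinning 0.315 and 0.421.

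**Figure D4:**
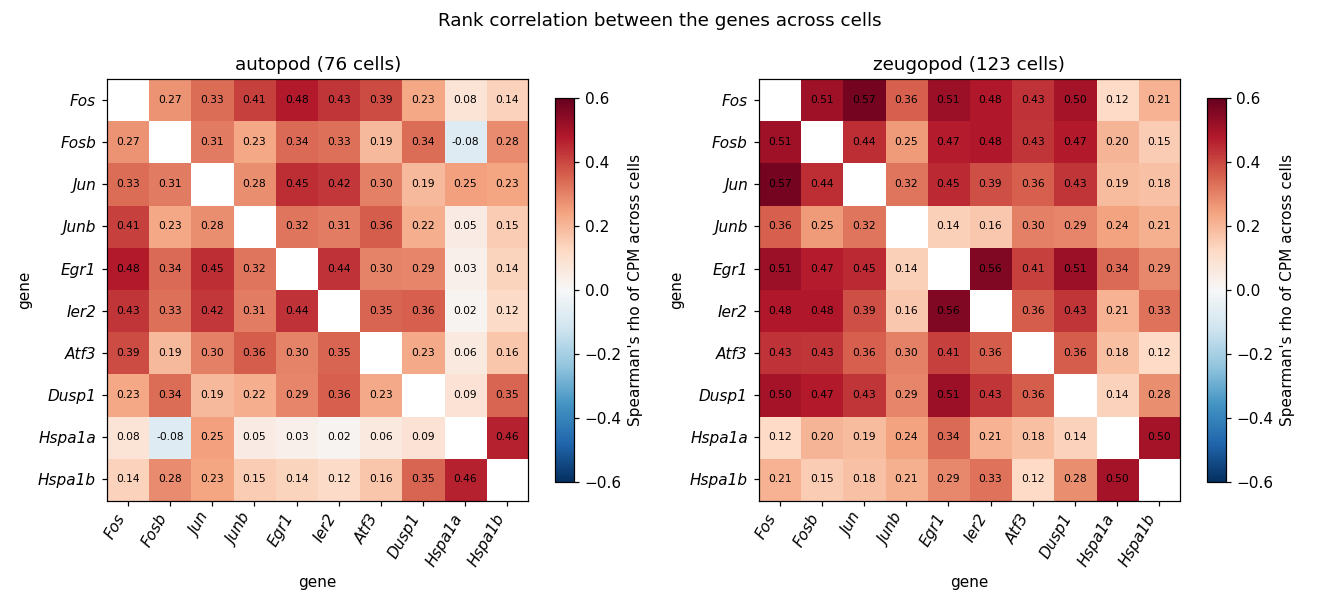
Each square is Spearman's rho of CPM across the cells of a tissue for a pair of genes, with red for positive and blue for negative values. The block of 8 immediate early genes is red throughout in both tissues, the Hsp70 pair is red with itself (0.46 and 0.50), and most squares between the classes are paler than those within the early genes.

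*Hspa1a* and *Hspa1b* had a rho of 0.460 (autopod) and 0.497 (zeugopod), and 0.434 to 0.533 in the 4 groups of tissue and run. The 16 pairs between an early gene and an Hsp70 gene had medians of 0.126 and 0.205. By run these were 0.063 (NXT0072) and -0.016 (NXT0143) in the autopod, below the medians of all gene pairs there, 0.070 and 0.039. In the zeugopod they were 0.185 (NXT0142) and 0.239 (NXT0143), against 0.032 for all gene pairs in each. The mean rank of each cell over the 8 early genes had a rho with its summed Hsp70 CPM of 0.363 in the zeugopod (0.341 in NXT0142 and 0.401 in NXT0143) and of 0.180 in the autopod (0.110 in NXT0072 and -0.173 in NXT0143). The Hsp70 genes are at 0 in most cells, which limits these values. The autopod value within the pair fell to 0.226 over the 41 cells with fewer than 3 of 5 chondrogenic markers. Each cell's mean rank over the 8 early genes had a rho of 0.0425 with its reads and 0.257 with its genes detected in the autopod, and -0.0946 and 0.0645 in the zeugopod.

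The genes most like the early genes were sought among 2578 genes detected in 25% of the cells of each of the 4 groups, by the smallest rho over the groups (59, 17, 58 and 65 cells) with the mean rank of the 8. These were *2810039B14Rik* (0.456), an annotated unitary pseudogene, *Btg2* (0.432), an antiproliferative early response gene, *Slc6a6* (0.390), the taurine transporter, *Klf4* (0.364), *Id1* (0.341), *Dnajb1* (0.317), *Klf6* (0.314) and *Id3* (0.299). *Klf4* and *Klf6* encode zinc finger transcription factors, *Id1* and *Id3* inhibitors of basic helix-loop-helix proteins, and *Dnajb1* an Hsp70 co-chaperone. The median of the smallest rho over all candidates was -0.108, and 6 of the 8 were among the first 8 with the normalized value as well. Of the genes most like the summed Hsp70 CPM, the highest, *Snrpa*, reached only 0.205, and none of the first 5 (*Snrpa*, *Sh3gl1*, *Arl6ip1*, *Krtcap2* and *Elp5*) stayed among them with the normalized value, with 0 shared. That weak likeness is no finding.

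Wider lists were described in the same comparisons. None of the 23 other immediate early genes of the table, 6 phosphatase and feedback genes, 10 upstream genes, 15 heat shock and chaperone genes or 4 integrated stress response genes was past 2 in either direction over all cells, and no list gene met the rule for being named. The list medians there were 0.32, 0.02, 0.20, -0.18 and 0.26, against -0.12 for all genes. Within NXT0143, where 3.59% of all genes that passed the filter were at least 2 higher and their median was 0.18, the count was 4 of 23 for the other immediate early genes, with a median of 1.01 and 20 above 0. Of the 15 that passed the filter 3 were past 2, with a median of 1.10. The 4 were *Cyr61* (2.92), a secreted matrix protein, *Klf10* (2.52), a TGF-beta inducible factor, *Btg2* (2.45) and *Zfp36* (2.28), which destabilises mRNAs. The chaperones *Dnaja1* (2.77) and *Dnajb1* (2.03), 2 of 15 with a list median of 0.55 (2 of 12 past the filter, median 0.33), and *Ppp1r15a* (3.15), the eIF2alpha phosphatase subunit and 1 of 4 with a list median of 0.08 (1 of 3 past the filter, median 0.19), were past 2 as well. None of the 6 feedback genes (median 0.11) or 10 upstream genes (median 0.10) was. Between the autopod cells of NXT0072 and the zeugopod cells of NXT0142 no list gene was at least 2 higher in the autopod and 4 were at least 2 lower, beside 6.94% of all genes, *Spry2* (-2.60), *Dnaja1* (-2.44), *Hsf2* (-2.30) and *Ppp1r15a* (-2.17). There the list medians were 0.06, -0.31, 0.21, -0.42 and 0.35. All 9 genes named here were chosen after their values were seen.

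Some upstream regulators and chaperones are given as well, picked after their values were seen. *Srf*, serum response factor, was detected in 30.3% of autopod and 15.4% of zeugopod cells, *Elk1* in 11.8% and 8.94%, and *Hsf1*, the main heat shock factor, in 23.7% and 18.7%. *Hsp90ab1* was detected in 92.1% and 100.0% of cells with medians of 386 and 561 CPM, and *Hspa8*, the constitutive Hsc70, in 47.4% and 76.4%. Their tissue differences changed sign with the runs. These were 0.39 and 0.20 within NXT0143, and -1.41 and -1.47 between NXT0072 and NXT0142. *Hsph1*, of the same list, was detected in 63.2% and 46.3% and was higher in the autopod in both comparisons (0.92 and 1.64).

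**Figure D5:**
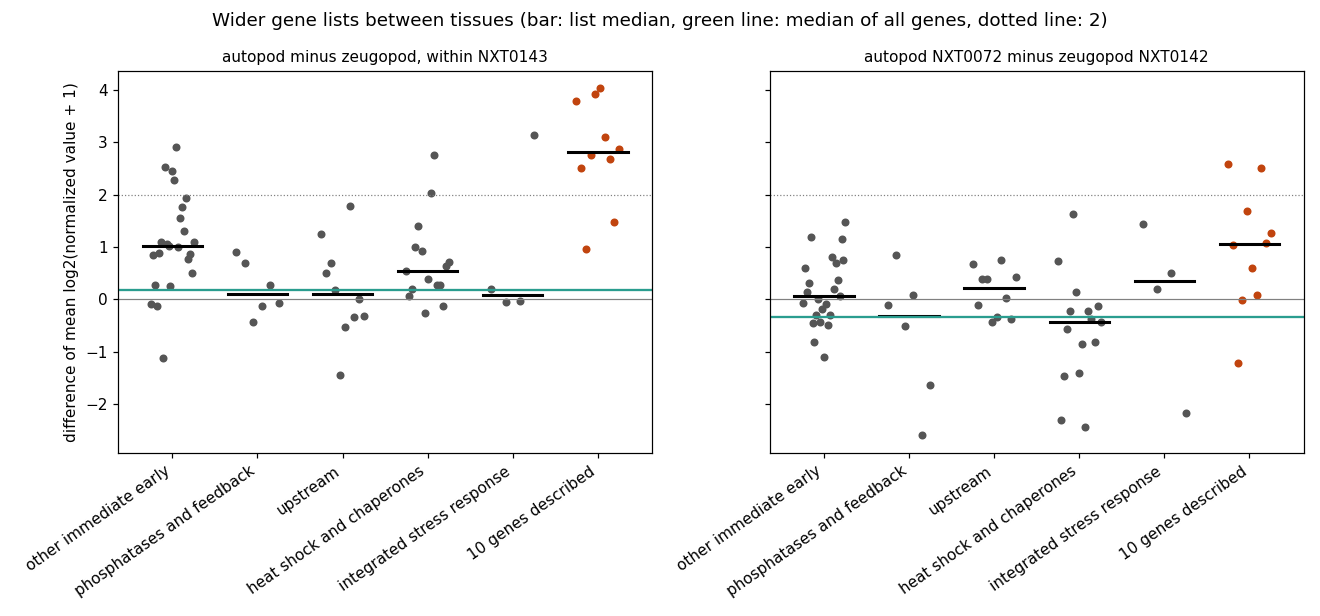
Points are genes, the vertical axis is the autopod minus zeugopod difference of mean log2(normalized value + 1), and bars are medians of each list. The 10 genes described have medians of 2.82 within NXT0143 (left) and 1.05 between the other runs (right), with the lists drawn beside them and the median of all genes in green.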

How the data were processed

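Per the labels, single cells were captured on the Fluidigm C1, amplified with the SMARTer kit and read at 75 bases. The authors mapped reads uniquely to mm10 (GRCm38) with Bowtie2 in local mode, its version not given in the sources used here, and deposited raw counts of reads per gene for 225 cells. They also deposited a normalized signal for 199 cells, counts divided by gene length and by spike-in size factors, which per the methods were centred by batch. There, 99.96% of values were whole reads plus 1 after multiplying back (tolerance 1e-06). The 92 spike-in rows were not used.

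CPM was computed over all genes. Cells were thinned without replacement to 500000 reads (seed 42). Differences were taken as means of log2(value + 1). Alternatives were pseudocounts of 0.1 and 10, CPM, each run, no filter, and cells with fewer than 3 of 5 chondrogenic markers. No cell was duplicated. Scripts ran in Python 3.11.15 with pandas 2.3.3 and scipy 1.17.1 and were tested on simulated data. All 10 members were named, with list genes past 2 in the pooled and both run comparisons and the 8 and 5 genes most like the members. The members and lists were chosen with earlier results of these data known. Promoter windows were RefSeq's (GRCm38.p6), matched by symbol for 9 of 10 members, of which 8 were searched. *Ier2* had none. All motifs were searched on both strands. CArG boxes and AP-1 sites (TGANTCA) were in none of the 8 windows and in 1.47% and 6.75% of all windows. TATAAA was in 1 and 12.4%, CCAAT in 4 and 33.8%, the heat shock motif in 3 and 6.69%, and TGACG in 5 and 17.8%. The nearly identical *Hspa1a* and *Hspa1b* windows each count in CCAAT and heat shock, and TGACG was added after the windows were seen.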

Additional observations from a re-analysis of the deposited data

Results flagged for a closer look

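Several tissue differences had opposite signs in the comparison within NXT0143 and in that between the autopod cells of NXT0072 and the zeugopod cells of NXT0142. None of these contrasts between contrasts was tested, since each tissue and run is 1 pool. *Jun* was 0.96 and -1.21, and *Junb* was 2.76 and -0.0063. Among the list genes *Klf10* was 2.52 and -0.29, *Btg2* 2.45 and -1.10, *Zfp36* 2.28 and -0.086, and *Cyr61* 2.92 and -0.50. *Spry2* was 0.28 and -2.60, *Hsf2* 0.064 and -2.30, *Dnajb1* 2.03 and -0.85, *Dnaja1* 2.77 and -2.44, and *Ppp1r15a* 3.15 and -2.17.

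The run difference, NXT0143 minus the other run, had opposite signs in the autopod and the zeugopod for *Junb* (2.49 and -0.27), *Ier2* (3.34 and -0.10) and *Hspa1b* (1.55 and -0.067), again without a test. For 2 of them the zeugopod sign was lost in CPM, at 0.31 for *Ier2* and 0.0048 for *Hspa1b*. Cells with at least 3 of 5 chondrogenic markers were also set beside other cells. The difference changed sign between runs for *Egr1* in the zeugopod (-2.45 in NXT0142 and 2.74 in NXT0143). It also did for *Dusp1* in the autopod (0.40 in NXT0072 and -3.32 in NXT0143, from 8 and 9 cells in NXT0143). These were not tested either.

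Of the 20 autopod cells that the authors left out, 7 held 5 or more reads of an immediate early gene. Their reads on genes ran from 17 to 2926028 with a median of 4952, and 1 cell had 14035 reads of *Fos*.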

How the results depend on the processing

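Of 48 alternative values of the main results 39 moved by less than the spread over cells or stayed within 1.5 times, and 9 moved. None reversed. The median tissue difference over the members, 1.28, was 0.83 with a pseudocount of 10, 2.82 within NXT0143 and 2.69 there in CPM, the last chosen after seeing the data. The number of members at least 2 higher in the autopod, 2, became 4 with a pseudocount of 0.1, 1 with a pseudocount of 10, 8 within NXT0143 and 7 at a size of 1. Without the filter on low counts 0.356% of genes were at least 2 higher, against 0.796%. The median run difference in the zeugopod, 0.17, was 0.48 in CPM. The cause of these shifts was not tested. Of 224 values of single genes 176 stayed and 48 moved. Depth limits the shares: *Junb* in the autopod was 57.9% at 1 read and 19.4% after thinning.

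No paired analysis was possible because the result comes from no test. Cells cannot stand for embryos, reads without molecular identifiers are not molecules, and no undissociated sample was analysed here, so no value separates what was present in the limb from what arose during preparation.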

Other observations

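Cartilage precursors are part of both tissues at this stage. Cells with at least 3 of *Sox9*, *Col2a1*, *Acan*, *Col9a1* and *Matn1* (chondrogenic-like, 35 autopod and 38 zeugopod cells) were set beside the other cells in log2(normalized value + 1). *Atf3* was lower in them in all 4 groups, at -1.72 and -2.03 in the autopod cells of NXT0072 and NXT0143 and at -0.47 and -1.08 in the zeugopod cells of NXT0142 and NXT0143. These differences rest on few cells, since *Atf3* was detected in 9 of 59, 10 of 17, 6 of 58 and 15 of 65 cells of these groups. In the autopod cells of NXT0072, 1 cell held 79.5% of its reads, and the chondrogenic-like mean of 0.60 lay near the floor. The median of all genes was -0.58, -0.35, -0.47 and near 0 in these groups, so that *Atf3* in the zeugopod cells of NXT0142 lay at that median. *Fos* lay at -0.16 and 1.23 in the autopod cells of NXT0072 and NXT0143, and *Jun* at -0.27 and 0.69. Chondrogenic-like cells held a median of 3390 detected genes against 3890 in the autopod, and 3870 against 4051 in the zeugopod, and the part of this in the values was not tested. Tendon markers, at least 2 of *Scx*, *Tnmd* and *Tnc*, were found in 17 zeugopod cells and in 0 of 76 autopod cells, which allows 3 cells.

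Of the 6 zeugopod cells left out by the authors, 2 held 5 or more reads of an immediate early gene, and 1 of these had 3688 reads of *Jun*.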
